A study of Mus musculus with 2 samples.

Results

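Heat shock proteins and chaperones are described here by 10 genes, taken by symbol from the 22322 genes of a table of mRNA levels in liver macrophages. All 10 were found by Ensembl gene ID, and 9 of them reached 1 FPKM in at least 1 library. FPKM is the number of sequenced fragments scaled to gene length and to the size of the library, so levels of different genes can be compared per length. The genes fall into 3 classes by their known use. Hspa1a, Hspa1b, Dnajb1, Hsph1, Hspb1 and Hsp90aa1 are induced by stress, Hsp90ab1 and Hspa8 are made constitutively, and Hspd1 and Hspe1 act in mitochondria.

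The data comprised 1 library from WT mice and 1 from FABP7 KO mice. The labels give C57BL/6 as the background of both groups, and the methods give C57BL/6J for the FABP7-/- mice. All were males aged 6 to 8 weeks that carried liver metastases of MC38, a mouse colon carcinoma line. They had received 500000 MC38 cells in 100 µl PBS by injection into the spleen, and macrophages were taken from the liver on day 10 with F4/80 positive selection. FABP7 was absent from the whole animal in the KO mice and not from macrophages alone, the sources do not say how many mice went into a library, and no tumor-free mice belong to this comparison. One label field calls the KO sample a knockdown, and the other labels and the methods call it a knockout. Fabp7 stood at 354 FPKM in the WT and at 0.69 FPKM in the KO library.

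Chaperones hold unfolded proteins, help them to fold and keep them from clumping. HSP70 proteins bind short exposed stretches and are handed clients by J proteins such as DNAJB1, HSP110 proteins such as HSPH1 reload them with ATP, and HSP90 acts later on kinases and hormone receptors. Heat, oxidants and damaged proteins release the transcription factor HSF1, which binds repeats of the bases GAA in alternating directions, the heat shock element, and switches on the inducible genes. In mitochondria, HSPD1 (HSP60) forms a folding chamber that HSPE1 (HSP10) closes as a lid.

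The promoters of 7 of the 10 genes are in the RefSeq table (GRCm38.p6) of windows from 250 bases before to 50 bases after a transcription start. The heat shock element was searched in these windows as GAANNTTC or TTCNNGAA, which read the same on both strands, and, with one more repeat, as GAANNTTCNNGAA or its reverse complement TTCNNGAANNTTC, which contain the shorter forms. Of all 32851 windows, 15.1% held the short form and 0.603% the long one, and of the 27025 genes with a window, 17.0% and 0.662% had one that did. Among the 7 genes, the short form was found in 6 and the long form in Hsph1, Hspd1 and Hspe1, and in Dnajb1 neither was found in its 2 windows. Only exact matches were counted, so an element with a differing base or outside the windows would be missed. The lack of a match therefore does not show that a gene has no heat shock element. Hspa1a and Hspa1b are shown because they are neighboring near copies, Hspb1 because it is the inducible gene that was near 0 in both libraries, Hspe1 because its window shares 285 of 300 bases with a window of Hspd1 on the opposite strand, and Hsph1 as the other gene with the long form. Capitals mark the matches to the short or long form, and positions are counted from the start of transcription. The first 3 stretches lie upstream of the start, outside exons (GENCODE, GRCm38), the Hspe1 stretch lies upstream of Hspe1 but within an exon of longer Hspd1 transcripts, and the Hsph1 stretch lies just after the start, in the first exon of several Hsph1 transcripts.
Hspa1a, chr17:34972157-34972306, minus strand: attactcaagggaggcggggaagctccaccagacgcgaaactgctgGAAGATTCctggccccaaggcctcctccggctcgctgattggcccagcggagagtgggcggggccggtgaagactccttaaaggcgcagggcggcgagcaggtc
Hspa1b, chr17:34959239-34959388, minus strand: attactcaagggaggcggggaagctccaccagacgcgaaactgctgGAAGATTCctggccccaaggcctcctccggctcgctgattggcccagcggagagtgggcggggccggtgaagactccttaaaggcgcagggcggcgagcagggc
Hspb1, chr5:135887769-135887918, plus strand: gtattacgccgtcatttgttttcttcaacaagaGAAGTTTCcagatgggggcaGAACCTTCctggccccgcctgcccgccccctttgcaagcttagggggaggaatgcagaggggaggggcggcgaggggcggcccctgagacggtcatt
Hspe1, chr1:55088053-55088082, plus strand: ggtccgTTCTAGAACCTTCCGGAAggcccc
Hsph1, chr5:149636287-149636312, minus strand: aaatgctgcagaTTCTGGAAAGTTCt
The windows of Hspa1a and Hspa1b were the same at 296 of 300 bases, with the match at bases -104 to -97 in both. In Hspe1 the match ran from base -89 to base -72 and holds the long form in 2 overlapping positions. A match describes letters of the genome and does not show that HSF1 was bound in these cells.

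The stress-inducible HSP70 genes were low in both libraries and higher in FABP7 KO macrophages, while the abundant constitutive and mitochondrial chaperones were lower. Differences are log2 ratios of KO to WT levels, each with 1 FPKM added, and the size rules used are at least 2-fold and at least 1.5-fold on this scale. With 1 library per genotype there is no spread between mice and no test, so these rules describe this pair of libraries. Hspa1a was the 1 gene of the 9 past the 2-fold rule on the higher side, against 2.21% of all 10770 measured genes, and 0 were at least 2-fold lower, against 2.95%. At 1.5-fold, 3 genes were higher, against 8.02% of all measured genes, and 1 was lower, against 7.37%. The median log2 ratio was 0.59 over the 5 measured inducible genes, -0.25 over the 2 constitutive genes and -0.58 over the 2 mitochondrial genes, and it was 0.004 over all measured genes. In RNA of a cell preparation, a change in how many cells make a transcript and a change in the amount per cell cannot be told apart.

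**Figure D1:**
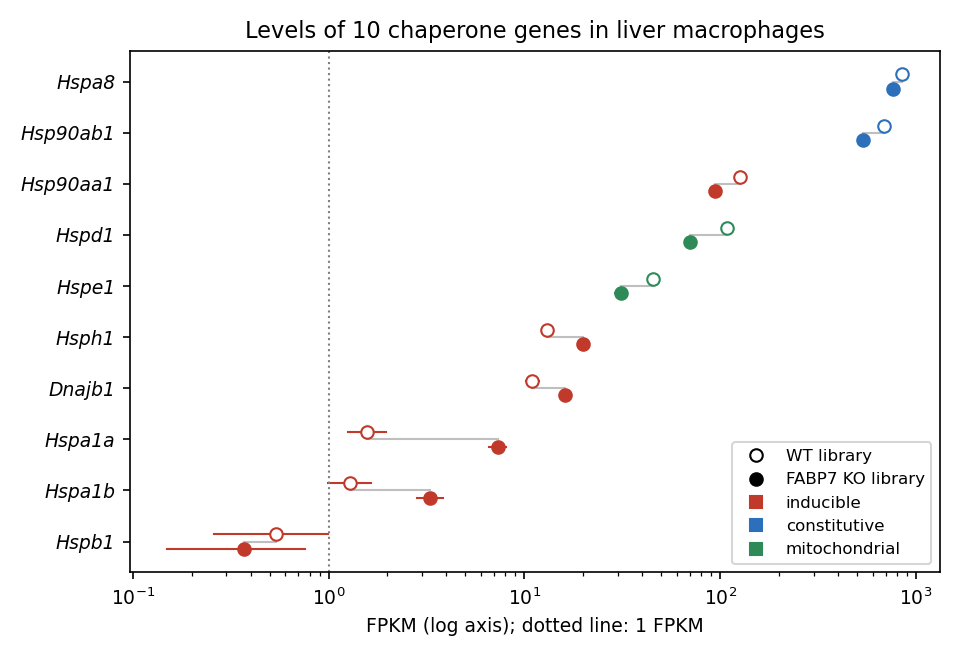
Level of each of the 10 genes in FPKM on a log axis, with open points for the WT and filled points for the FABP7 KO library, colored by class, and bars for the 95% counting interval. The order of the genes is the same in both libraries, from Hspa8 (852 and 763 FPKM) down to Hspb1 (0.54 and 0.37 FPKM), and filled points lie right of open ones for Hsph1, Dnajb1, Hspa1a and Hspa1b.

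Hspa1a and Hspa1b encode nearly the same protein, the inducible cytosolic HSP70. Hspa1a (ENSMUSG00000091971) was at 1.58 FPKM in the WT and at 7.31 FPKM in the KO library. This is a log2 ratio of 1.69, the 22nd highest of the 10770 measured genes. About 85 fragments in WT and 390 in KO stood behind these values, as estimated from the smallest steps between low FPKM values, and the ratio of the plain FPKM values was 4.63 with a 95% counting interval of 3.65 to 5.92. Such intervals cover counting error only and leave out differences between mice and between preparations. Hspa1b (ENSMUSG00000090877) was at 1.29 FPKM in the WT and at 3.31 FPKM in the KO library, which is a log2 ratio of 0.91, with a plain ratio of 2.57 (1.91 to 3.44). With a pseudocount of 0.1 in place of 1 its log2 ratio was 1.29, past the 2-fold rule. Both genes were thus close to the 1 FPKM floor in the WT library and further above it in the KO library.

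These genes can exchange reads. Of all stretches of 100 bases in the Hspa1a transcript, 47.1% also occur in Hspa1b, and 49.9% of those of Hspa1b occur in Hspa1a. The sources do not say how the authors assigned such reads, so the split between the genes is uncertain. Of the Hspa1a stretches, 56.5% occur in some other gene, among them Gm20481, Gm10501 and Hspa1l besides Hspa1b, and reads from these would touch the sum as well. The sum was 2.87 FPKM for WT and 10.6 FPKM for KO, a plain ratio of 3.70 (3.12 to 4.51) and a log2 ratio of 1.59. Hspa1a made up 55.1% of this sum in WT and 68.8% in KO macrophages, with counting intervals of 46.7 to 63.2% and 64.8 to 72.7% that do not overlap. These intervals take each fragment as assigned to the right gene, so they leave out the uncertainty of the split and do not show a shift between the genes. Hspa1l, the gene of this cluster that is known mainly from testis, was at 0.59 and 1.15 FPKM.

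Hsph1, the HSP110 that exchanges nucleotides on HSP70, was at 13.0 FPKM in the WT and at 20.03 FPKM in the KO library. Its log2 ratio of 0.59 passed the 1.5-fold rule narrowly, and its plain ratio was 1.54 (1.45 to 1.64). Dnajb1 (HSP40), the J protein that hands clients to HSP70, was at 11.0 and 16.2 FPKM. Its log2 ratio of 0.52 stayed short of 1.5-fold, with a plain ratio of 1.47 (1.33 to 1.63). Neither transcript shares a stretch of 100 bases with another gene. The 4 genes of the HSP70 system that are induced by stress therefore all had higher values in the KO library, at levels between 1.29 and 13.0 FPKM in the WT library.

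Hspb1 and Hsp90aa1 are also counted as inducible genes but did not share this direction. Hspb1 (HSP25), a small heat shock protein that holds unfolded proteins and binds actin, was at 0.54 FPKM in the WT and at 0.37 FPKM in the KO library, below the 1 FPKM floor in both. About 10 and 7 fragments stood behind these values, and the interval of their ratio, 0.23 to 2.05, includes a difference in either direction. In Hspb1, 42.7% of the stretches of 100 bases also occur in Hsp25-ps1 or Gm9817, so its low level is uncertain in this way too. Hsp90aa1, the stress-responsive cytosolic HSP90, was at 126 FPKM in the WT and at 94.3 FPKM in the KO library, which is a log2 ratio of -0.42 and a plain ratio of 0.75 (0.72 to 0.77). It was by far the most abundant gene of its class, and without it the median of the inducible genes was 0.75. Of its stretches of 100 bases, 47.5% also occur in 3 pseudogenes (GENCODE), so its level is less certain than its fragments imply.

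**Figure D2:**
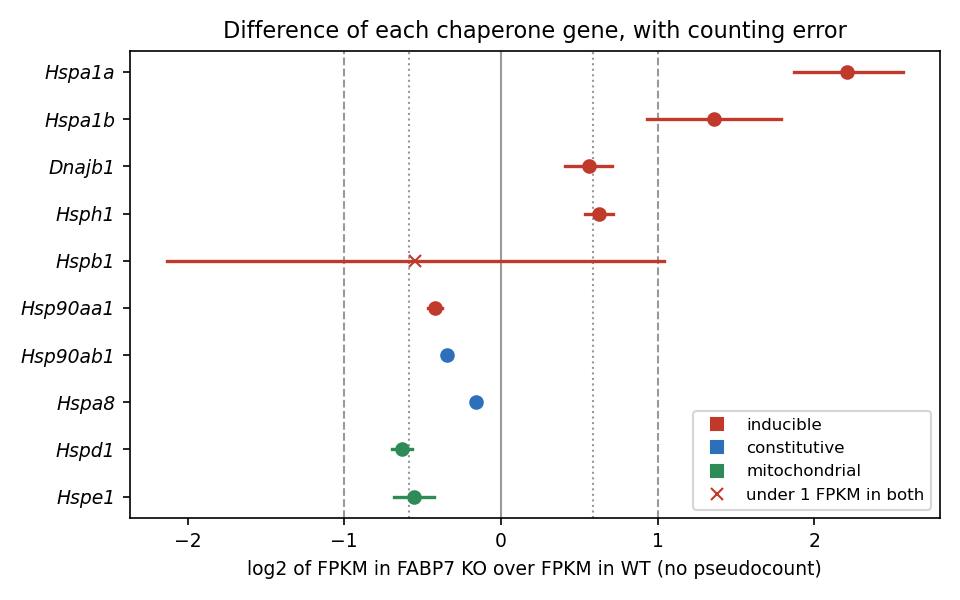
Log2 of FPKM in FABP7 KO over FPKM in WT without a pseudocount for each gene (points, colored by class), with bars for the 95% counting interval and lines at 1.5-fold (dotted) and 2-fold (dashed). Hspa1a lies beyond the 2-fold line with its whole bar, and the bar of Hspb1, drawn as a cross for its low level, spans 0.

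The constitutive genes were the most abundant of the 10. Hspa8 (HSC70), the housekeeping HSP70 that also uncoats clathrin and serves chaperone-mediated autophagy, was at 852 FPKM in the WT and at 763 FPKM in the KO library, which is a log2 ratio of -0.16. Hsp90ab1, the constitutive cytosolic HSP90, was at 683 and 539 FPKM, a log2 ratio of -0.34. With 66363 and 37130 fragments behind the WT values, counting error is small, and the plain ratios were 0.90 (0.89 to 0.91) and 0.79 (0.78 to 0.80). Neither reached 1.5-fold. For Hspa8, 32.1% of the stretches of 100 bases occur in 8 other genes, mostly pseudogenes, and for Hsp90ab1 0%.

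Within a library the balance of inducible to constitutive copies does not depend on how the libraries were scaled to each other. Hspa1a and Hspa1b together made up 0.336% of the FPKM of cytosolic HSP70 (with Hspa8) in the WT library and 1.37% in the KO library. The counting intervals, 0.285 to 0.394% and 1.26 to 1.49%, do not overlap. Hspa8 was thus 297 times the inducible sum in WT and 71.8 times in KO macrophages, so nearly all cytosolic HSP70 mRNA was Hspa8 in both. Hsp90aa1 made up 15.6% of cytosolic HSP90 mRNA in WT and 14.9% in KO macrophages. Those intervals, 15.3 to 15.9% and 14.5 to 15.2%, do not overlap either but lie close together, and the difference is small beside that of HSP70. Both sets of intervals cover counting error only and take each fragment as assigned to the right gene. Since Hsp90aa1 and Hspa8 also share stretches with other genes, the intervals do not show a shift between the genotypes.

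The mitochondrial folding chamber and its lid were lower together. Hspd1, the chamber, was at 108.5 FPKM in the WT and at 70.2 FPKM in the KO library, which is a log2 ratio of -0.62 and a plain ratio of 0.65 (0.62 to 0.68). Hspe1, the lid, was at 45.6 and 31.05 FPKM, a log2 ratio of -0.54 and a plain ratio of 0.68 (0.62 to 0.74). These 2 genes stand head to head and share the promoter stretch shown above. Hspd1 made up 70.4% of their summed FPKM in WT and 69.3% in KO macrophages, and the counting intervals, 69.1 to 71.7% and 67.7 to 70.9%, overlap. Hspd1 was the 1 gene of the 10 that was at least 1.5-fold lower, a call that was lost with other scalings of the KO library (-0.58 and -0.57). Of its stretches of 100 bases, 26.9% also occur in 2 pseudogenes.

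The order of levels was the same in both libraries: Hspa8, Hsp90ab1, Hsp90aa1, Hspd1, Hspe1, Hsph1, Dnajb1, Hspa1a, Hspa1b and Hspb1. In the WT library, Hspa1a and Hspa1b were the only neighbors in this order whose counting intervals overlapped, and in the KO library no neighbors overlapped. Summed over the 10 genes, the level was 1843 FPKM for WT and 1545 FPKM for KO, or 0.398% and 0.345% of all FPKM. Hspa8 and Hsp90ab1 alone gave 0.332% and 0.290%. The sum over the 6 inducible genes was 153.5 and 141.5 FPKM, most of it Hsp90aa1, and without Hsp90aa1 it was 27.4 and 47.2 FPKM.

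Direction went with level among these genes. The 4 measured genes with a mean under 20 FPKM had ratios above 0, and the 5 with a higher mean had ratios below 0, a division that was chosen after the values were seen. Over all measured genes, 54.1% of the 7304 with a mean under 20 FPKM had a ratio above 0, and 57.6% of the 3466 with a higher mean had a ratio below 0. The medians were 0.04 and -0.06. The part of level in the chaperone values was not tested.

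**Figure D3:**
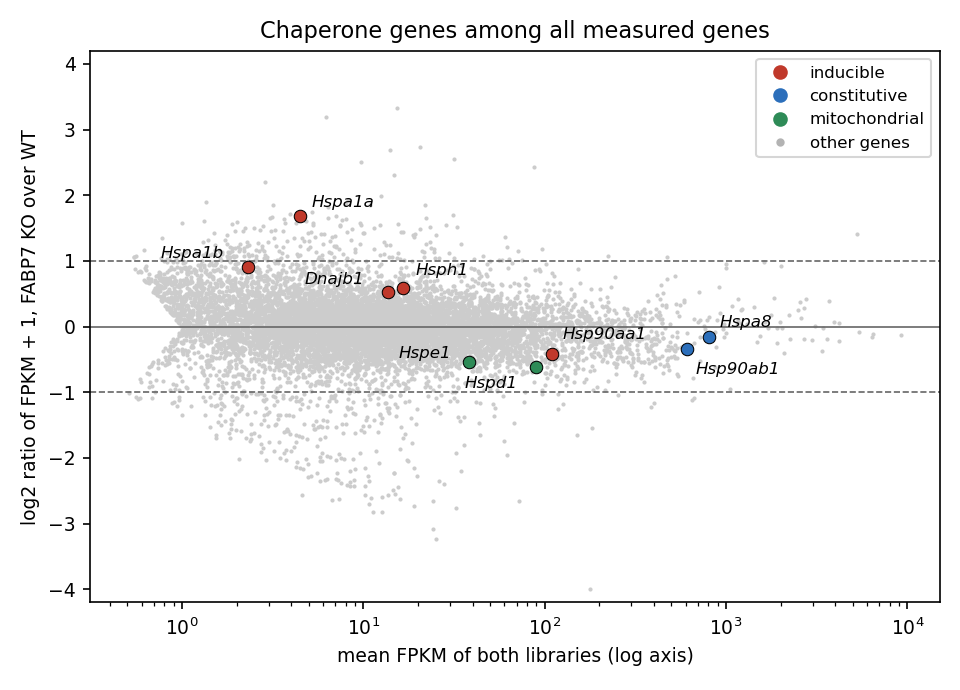
Log2 of KO to WT levels, with 1 FPKM added to each, against the mean FPKM of both libraries (log axis) for all measured genes (grey) and the 9 measured chaperone genes (colored by class), with dashed lines at 2-fold. Fabp7 lies off the scale and is drawn at the lower edge. Hspa1a lies above the upper dashed line at 1.69, and the 5 abundant genes lie between 0 and the lower dashed line.

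Other genes of the chaperone network were set beside the 10 genes through 9 lists that hold 106 further genes, 95 of them measured, some in more than 1 list. Of these, 31 had a ratio above 0 and 64 below 0, with a median of -0.14, against 49.5% below 0 over all measured genes. At 2-fold, 1 of the 95 was higher and 2 were lower, and at 1.5-fold 5 were higher and 4 lower. These small counts all lie below the shares of all measured genes, 2.21%, 2.95%, 8.02% and 7.37% in the same order. Of the regulators of the response 3 of 5 were measured, 1 above 0 and 2 below. Hsf1, the gene of the factor itself, was at 11.6 FPKM in the WT and at 12.2 FPKM in the KO library, and Hsf2, a related factor, was at 6.19 and 5.14 FPKM.

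Among 20 other genes of the stress response, 9 had a ratio above 0 and 11 below 0, with a median of -0.05. Serpinh1 (HSP47), a collagen chaperone of the endoplasmic reticulum, was at 1.33 FPKM in the WT and at 3.78 FPKM in the KO library, and its log2 ratio of 1.04 made it the 1 gene past 2-fold. Dedd2, a death effector domain protein, was at 2.2 and 4.36 FPKM. Bag3, which binds HSP70 and steers clients to autophagy, was at 8.14 and 13.1 FPKM, a log2 ratio of 0.62. In the other direction lay Rbm3, an RNA-binding protein known for induction by cold, at 246 and 125 FPKM with a log2 ratio of -0.97, and Fkbp4, an HSP90 co-chaperone, at 45.0 and 32.8 FPKM. Ubb, a ubiquitin gene and among the most abundant of this list, was at 1036 and 965 FPKM. The list thus held genes in both directions, and those past 1.5-fold on the higher side were, like Hspa1a and Hspa1b, under 10 FPKM in the WT library.

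Partners of HSP70 mostly stayed short of 1.5-fold in either direction. Of 13 measured relatives and exchange factors, 9 had a ratio below 0 and 1, Bag3, was past 1.5-fold. Their median log2 ratio was -0.15, and the lowest was -0.38, that of Bag1. Bag1 was at 69.1 FPKM in the WT and at 52.8 FPKM in the KO library, Hspbp1 at 13.6 and 10.3 FPKM, and St13 (HIP), which steadies HSP70 on its client, at 111 and 88.5 FPKM. Of 21 measured J proteins, 12 had a ratio above 0 and 9 below 0, with a median of 0.04. Dnajb2 was at 1.95 and 4.79 FPKM with a log2 ratio of 0.97, Dnajb14, of the endoplasmic reticulum membrane, at 7.13 and 11.3 FPKM, and Dnaja1, an abundant partner of HSP70, at 92.9 and 116 FPKM. Dnajc9, a J protein that also carries histones, was the 1 J protein past 2-fold and lay on the lower side, at 19.8 and 7.78 FPKM with a log2 ratio of -1.25.

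Of the 19 HSP90 co-chaperones, 14 had a ratio below 0, with a median of -0.21. Fkbp5, an immunophilin that binds HSP90 in steroid receptor complexes and is known for induction by glucocorticoids, was at 98.8 FPKM in the WT and at 24.7 FPKM in the KO library. Its log2 ratio of -1.96 was the lowest of all 9 lists. Nudc was at 57.3 and 38.7 FPKM, and Ahsa1, which speeds the ATPase of HSP90, at 64.0 and 53.7 FPKM. Chordc1 had the highest ratio of this list, 0.33, at 27.9 and 35.3 FPKM.

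The CCT ring, which folds actin and tubulin, was lower as a whole. All 8 subunits had a log2 ratio between -0.58 and -0.33, with a median of -0.49, and none reached 1.5-fold. Cct2 was at 129 FPKM in the WT and at 93.3 FPKM in the KO library, Cct5 at 119 and 83.3 FPKM, and Cct6a at 65.2 and 43.3 FPKM. Prefoldin, which hands actin and tubulin to this ring, had 5 of 6 subunits below 0 and a median of -0.23, with Pfdn6 at 32.8 and 23.8 FPKM and Pfdn5 at 67.5 and 65.9 FPKM. Among 15 other mitochondrial chaperones and proteases, 12 were below 0, with a median of -0.17. Hspa9 (mortalin), the mitochondrial HSP70, was at 84.9 and 58.8 FPKM with a log2 ratio of -0.52, close to Hspd1 and Hspe1, whereas Trap1, the mitochondrial HSP90, was at 32.4 and 27.6 FPKM with a ratio of -0.22. Small heat shock proteins were scarce: 3 of 8 were measured, with Hspb6 at 2.35 and 1.02 FPKM, Cryab at 1.78 and 2.75 FPKM and Hspb8 at 1.03 and 1.04 FPKM, and Cryaa and Hspb3 were listed at 0 in both libraries.

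**Figure D4:**
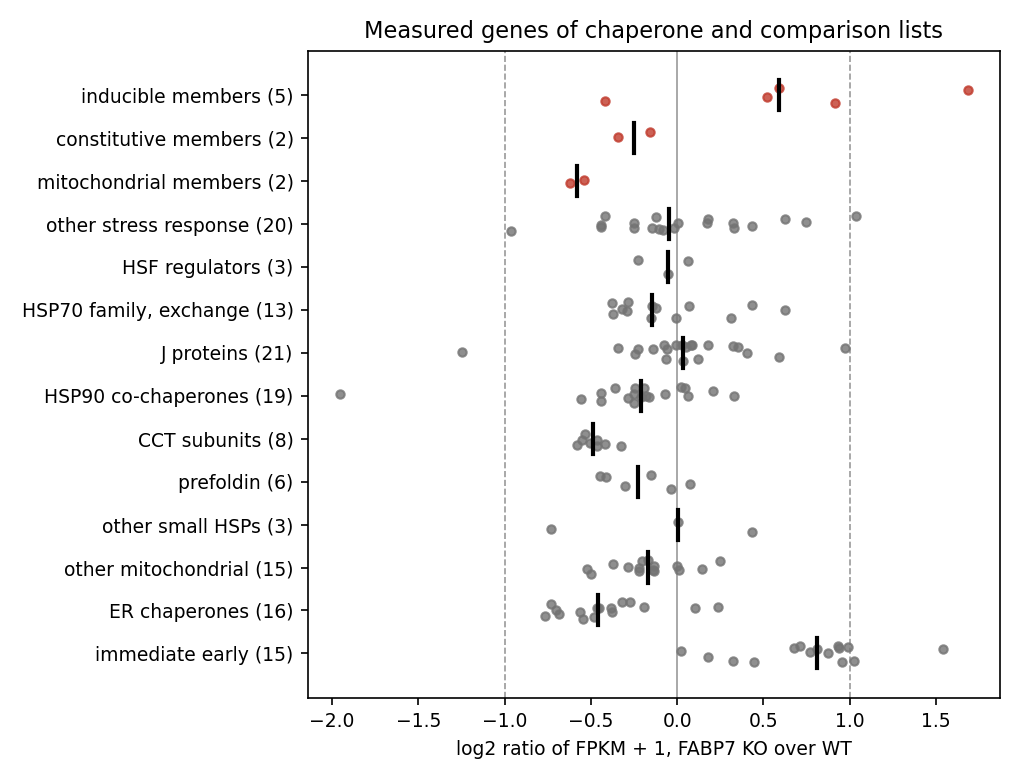
Log2 of KO to WT levels, with 1 FPKM added to each, of each measured gene (points) in the classes of the 10 genes (red) and in the comparison lists (grey), with the number of measured genes in parentheses, the median of each list (black bar) and dashed lines at 2-fold. The CCT subunits and the ER chaperones have medians of -0.49 and -0.46, and the immediate early genes one of 0.81.

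Chaperones of the endoplasmic reticulum resembled the abundant cytosolic and mitochondrial ones. Of 16 genes, 14 had a ratio below 0, with a median of -0.46, and 4 were at least 1.5-fold lower, against 7.37% of all measured genes. Hsp90b1 (GRP94), the HSP90 of this compartment, was at 559 FPKM in the WT and at 400.02 FPKM in the KO library, Hyou1, its HSP110, at 58.5 and 34.0 FPKM, and Sdf2l1 at 38.7 and 22.8 FPKM. Dnajb9 and Dnajc3 were on the other side at 18.1 and 21.5 FPKM and at 33.7 and 36.3 FPKM.

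Several other gene groups differed between the same libraries. All 15 immediate early genes, a group that cell handling can also induce, had a ratio above 0. Of these, 11 were at least 1.5-fold higher, against 8.02% of all measured genes. Their summed level was 546 FPKM for WT and 840 FPKM for KO, with Nr4a1 at 14.1 and 42.9 FPKM and Junb at 41.7 and 86.1 FPKM. Of the proliferation genes, 16 of 16 lay below -1 on the log2 scale, against 2.95% of all measured genes at least 2-fold lower. Their summed levels were 887 and 232 FPKM, with Ube2c at 46.5 and 4.03 FPKM and Pcna at 159 and 77.4 FPKM. The part of either group in the chaperone values was not tested. Markers of the selected cells were high, with the 11 macrophage and Kupffer cell markers, 9 of them above 0, at 24160 and 26901 FPKM in sum and Cd5l at 6696 and 6001 FPKM. Marco had the lowest ratio of the 11, -0.95, at 1377 and 714 FPKM, and was the 1 marker at least 1.5-fold lower. Markers of other cells had higher sums in the KO library: all 12 hepatocyte markers (591 and 1196 FPKM), 9 of 10 sinusoidal endothelial markers (551 and 748 FPKM), all 5 measured of 8 stellate cell and fibroblast markers (18.4 and 49.97 FPKM), all 6 measured of 9 neutrophil markers (11.9 and 59.6 FPKM), all 4 measured of 6 erythroid markers (25.9 and 64.9 FPKM) and all 4 measured of 6 B and plasma cell markers (13.1 and 31.6 FPKM) had ratios above 0. The sums of each marker list are over all its listed genes, also those that were not measured. Cdh5 alone, at 372 and 450 FPKM, gave most of the endothelial sums, and the median log2 ratio of that list was 1.20. Trf, at 306 and 642 FPKM, gave most of the hepatocyte sums, with a list median of 0.84. Of the T and NK cell markers 5 of 9 were measured, 3 above 0 and 2 below, with a median of 0.34 and sums of 10.4 and 10.2 FPKM, in which Cd4 was at 1.97 and 2.77 FPKM and Gzmb at 3.38 and 0.89 FPKM. Of the epithelial markers, which tumor cells could carry, 3 of 6 were measured, 1 above 0 and 2 below, with a median of -0.24 and sums of 6.62 and 5.86 FPKM. Krt18 was at 3.38 and 2.48 FPKM, Krt8 at 1.8 and 1.88 FPKM and Krt19 at 1.05 and 0.74 FPKM, while Epcam was at 0 and 0.13 FPKM and Cldn3 at 0 and 0.04 FPKM. The part of these cells in the chaperone values was not tested.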

How the data were processed

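The authors deposited FPKM values with 2 decimals for 22322 genes in 1 WT and 1 FABP7 KO library of liver macrophage mRNA. TopHat2 2.1.1 and Bowtie2 2.2.8 are named in the submitters' processing notes. The counting tool, annotation and genome build are not stated there, so the coordinates printed are those of RefSeq promoter windows. The tables of single libraries held the same values.

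Symbols were assigned by Ensembl gene ID for 22267 genes. Log2 ratios used a pseudocount of 1 FPKM over genes that reached 1 FPKM in either library. Depth, estimated from steps between low values of short genes with GENCODE exon lengths, was about 18100000 fragments for WT and 18000000 for KO, with 88.3% and 90.2% of 179 and 164 low values within 0.15 of a whole fragment, where 30% is the share without steps. Fragments per gene assume these lengths. Counting intervals are exact 95% intervals, Poisson for levels and binomial for ratios and shares. The steps were tested on simulated data. Genes named were the 10 genes and, in each list, the 2 highest and 2 lowest ratios and the 2 highest means, or, for marker lists, the highest mean. Epcam, Cldn3, Cryaa, Hspb3, Gzmb, Krt8, Krt19 and Marco were named after their values were seen. The values of some genes that this rule names are not reported here. Alternatives were 2 other scalings of the KO library, a pseudocount of 0.1, no floor or one of 5 FPKM, a 1.5-fold rule, other classes and other exon lengths, and the division at 20 FPKM was added after the values were seen. The members and lists were chosen with earlier results of these data known. Python 3.11.15, NumPy 2.4.6, pandas 2.3.3, SciPy 1.17.1 and Matplotlib 3.10.9 were used.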

Additional observations from a re-analysis of the deposited data

How the results depend on the processing

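No log2 ratio of the 9 measured chaperone genes changed sign with the other scalings. Those factors, 0.974 and 0.965, were too close to 1 to turn even the smallest ratio, that of Hspa8 (-0.16, then -0.12 and -0.11). A pseudocount cannot turn the sign of a ratio, and floors and exon lengths cannot alter the ratio of a gene. With the KO library rescaled to the median ratio of genes from 10 FPKM up (0.974), or to totals that leave out hepatocyte, erythroid and mitochondrially encoded genes (0.965), the median of the constitutive genes was -0.21 and -0.20, and the count of genes at least 1.5-fold lower was 0 in both, since Hspd1 stopped just short. With a pseudocount of 0.1, 2 genes, Hspa1a (2.14) and Hspa1b (1.29), were at least 2-fold higher, and 562 of all genes were higher and 444 lower in place of 238 and 318, which raised the higher share of these calls from 42.8% to 55.9%. With a size rule of 1.5-fold, 3 genes were higher and 1 was lower in place of 1 and 0. Without Hsp90aa1 the inducible median was 0.75. With a floor of 5 FPKM, the median of the other stress response genes was -0.12, and with totals scaled it was 0.001 in place of -0.05. That floor left 143 genes at least 2-fold higher and 232 lower of 8041, and 436 and 581 at 1.5-fold. Without a floor the epithelial list had a median of 0.05 in place of -0.24. Each of these shifts comes from the changed setting, since the deposited FPKM values behind them stayed the same. Counting error limits Hspb1, and no alternative can show the spread between mice. No paired analysis was possible because each genotype has 1 library.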
